A study of Mus musculus with 5 samples.

Results

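Heat shock proteins are molecular chaperones that keep other proteins folded. In mouse tracheal epithelium their transcripts were followed here through 9 genes: Hspa1a, Hspa1b, Hspa8, Hsp90aa1, Hspb1, Hsph1, Hspd1, Hspe1 and Dnajb1. The members were every probe set that the array's annotation gives to exactly 1 of these genes, which came to 22 of the 45101 probe sets and 9 of the 18193 genes with such a probe set. All 22 probe sets passed the filter on dim signals, so no member was lost.

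RNA was hybridised to an Affymetrix 3' expression array in 5 samples of sorted C57BL/6 cells. The mice were male and female and aged 8 to 12 weeks, and each sample came from a pool of 10 to 15 mice. The basal group (n = 2) held TROP-2+ITGA6+ cells of the surface epithelium, freed with the enzyme dispase from the lower part of the trachea. The duct group (n = 3) held cells sorted on TROP-2 alone from the upper trachea after pronase had stripped off the surface epithelium. The labels name no transgene or treatment. Enzyme, tracheal section and sort gate all differ between the groups together with the cell type, so these cannot be told apart, and in sorted pools fewer cells of a type and less RNA per cell cannot be told apart either. All 11 listed markers of airway basal cells passed the filter on dim signals. Of these 2 were called higher in duct cells, against 0.838% of all tested genes. The 11 summed to 101732 to 111595 on basal and 118940 to 136244 on duct arrays. The sums hide differences in both directions. Krt5, Krt14, Krt15, Krt17 and Itga6 were higher on every duct array than on both basal arrays. Trp63, Pdpn, Snai2 and Ngfr were lower on every duct array, and Aqp3 and Dlk2 overlapped. No list of markers held by duct cells alone was used, so the duct label was not checked against its own markers.

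Chaperones of the HSP70 family (here Hspa1a, Hspa1b and Hspa8) bind unfolded stretches of protein and release them in a cycle driven by ATP. Dnajb1, a J-domain protein of the HSP40 class, starts that cycle by stimulating ATP hydrolysis, and Hsph1, an HSP110 protein, ends it by exchanging the nucleotide. Hsp90aa1 finishes the folding of signalling proteins, Hspb1 is a small heat shock protein that holds unfolding proteins without ATP, and Hspd1 with its lid Hspe1 forms the folding chamber of the mitochondrial matrix. Hspa8 is made constitutively, whereas Hspa1a and Hspa1b are the classical inducible genes, switched on by heat shock factor 1 through heat shock elements, which are inverted repeats of the unit GAA. Epithelial cells also induce these genes when tissue is dissociated.

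The sequences before the transcription starts are shown because most of the 9 genes were higher together in duct cells, and because Hspa1a and Hspa1b are near copies of each other. RefSeq promoter windows of build GRCm38.p6, each with 250 bases before and 50 after a start, matched 7 of the 9 genes (all but Hspa8 and Hsp90aa1). Each line gives the bases just before a start, 5' to 3' on the gene's strand, with matches to GAANNTTC or TTCNNGAA in capitals. Each of these letter strings is its own reverse complement, so a match counts for both strands, and the strings can overlap. The Hspa1a stretch is chr17:34972157-34972406 on the minus strand and the Hspa1b stretch chr17:34959239-34959488 on the minus strand. The Hspb1 stretch is chr5:135887669-135887918 on the plus strand, the Hsph1 stretch chr5:149636337-149636586 on the minus strand and the Dnajb1 stretch chr8:83607925-83608174 on the plus strand. Hspd1 and Hspe1 are transcribed away from each other from starts 216 bases apart (a further Hspd1 start lies beyond that of Hspe1), and for them 30 bases of the stretch between the starts are shown, chr1:55088053-55088082 on the strand of Hspe1.
Hspa1a: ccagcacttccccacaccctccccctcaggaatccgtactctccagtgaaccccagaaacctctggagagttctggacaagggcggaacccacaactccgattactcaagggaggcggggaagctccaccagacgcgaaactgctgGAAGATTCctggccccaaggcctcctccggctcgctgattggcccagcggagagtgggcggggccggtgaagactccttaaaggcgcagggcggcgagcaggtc
Hspa1b: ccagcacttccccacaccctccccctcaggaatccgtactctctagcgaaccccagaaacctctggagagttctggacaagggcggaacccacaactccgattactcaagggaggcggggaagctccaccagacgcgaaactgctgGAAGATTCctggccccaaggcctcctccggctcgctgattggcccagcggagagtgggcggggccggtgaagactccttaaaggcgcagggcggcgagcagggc
Hspb1: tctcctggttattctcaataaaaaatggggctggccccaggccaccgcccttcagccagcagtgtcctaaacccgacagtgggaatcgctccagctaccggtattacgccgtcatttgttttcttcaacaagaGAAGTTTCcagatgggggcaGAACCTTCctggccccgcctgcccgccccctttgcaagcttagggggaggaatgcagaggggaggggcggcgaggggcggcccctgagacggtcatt
Hsph1: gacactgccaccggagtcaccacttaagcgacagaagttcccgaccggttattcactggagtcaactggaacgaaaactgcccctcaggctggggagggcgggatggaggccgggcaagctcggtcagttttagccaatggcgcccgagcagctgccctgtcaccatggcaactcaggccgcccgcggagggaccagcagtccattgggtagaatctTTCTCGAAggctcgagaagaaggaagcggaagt
Dnajb1: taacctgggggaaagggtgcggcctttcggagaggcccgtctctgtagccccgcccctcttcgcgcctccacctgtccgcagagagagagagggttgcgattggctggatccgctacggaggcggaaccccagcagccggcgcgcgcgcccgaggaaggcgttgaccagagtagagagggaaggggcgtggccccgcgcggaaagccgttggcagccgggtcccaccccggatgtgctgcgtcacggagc
Hspd1-Hspe1: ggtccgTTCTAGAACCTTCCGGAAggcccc

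The Hspa1a and Hspa1b stretches were identical at 247 of 250 bases (98.8%), and each held 1 match, GAAGATTC, from -104 to -97 counted from the start. Hspb1 held 2 matches, from -117 to -110 and from -97 to -90. In the stretch between Hspd1 and Hspe1, 3 matches overlapped in an unbroken run, from -89 to -72 counted from the Hspe1 start. Hsph1 held 1 match, from -33 to -26, and a longer run, TTCTGGAAAGTTC, just past its start, from 37 to 49. A match to either string was found in 7 of the 10 windows of these genes, against 15.1% of all 32851 windows of this length. By gene that was 6 of 7, the exception being Dnajb1, against 17.0% of all genes with a window. Among the lists of other genes described further on, it was 5 of 11 textbook heat shock factor targets, 3 of 6 other small heat shock genes, 5 of 15 co-chaperones and 0 of 8 other HSP70 and HSP110 genes. It was 5 of 18 other J-domain genes, 3 of 12 chaperonin and prefoldin genes and 1 of 8 mitochondrial protein quality genes. For other HSP90 genes it was 0 of 2, for heat shock factors 1 of 2 and for immediate early genes 3 of 18. Runs of a further unit, in which GAANNTTC is followed directly by NNGAA or TTCNNGAA by NNTTC (each run contains both shorter strings and was searched on both strands), were found in 4 of the 10 windows (of Hspd1, Hspe1 and Hsph1), against 0.603% of all windows. The counts by window and by gene hold some sites more than once. Hspd1 and Hspe1 share the stretch between them, the Hsph1 windows overlap, and Hspa1a and Hspa1b are near copies. A match describes the letters only, and its absence says only that they are not in this window.

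Intensities are in arbitrary units, on arrays that the authors scaled to the same trimmed mean. A fold change compares the duct with the basal mean of log2(intensity + 16), positive where duct cells were higher. Fold changes were tested with limma over all 12536 genes that passed the filter, with Benjamini-Hochberg adjusted p-values and a threshold of 0.05. The most intense probe set stood for each gene, and levels of different genes are not set against each other. Median intensity was 92.3 on duct replicate 1 and 146.5 to 152.8 on the other arrays. The log2 ratio of 3' to 5' signal for Gapdh, a measure of RNA integrity, was 1.70 and 2.21 on the basal and 1.97 to 2.13 on the duct arrays, so it did not separate the groups.

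Heat shock genes were higher in duct than in basal cells for most of the 9 members, by 1.57- to 2.77-fold in 7 of them, but 0 of 9 passed the threshold with limma. Over all genes 0.973% were called, 0.838% higher and 0.136% lower in duct cells. For 7 of the 9 genes each duct array lay above both basal arrays, a pattern seen in 16.5% of all tested genes, and the same 7 genes had an unadjusted p under 0.05, against 7.91% of all genes in that direction and 10.6% in the other. The fold change was above 0 in 8 of the 9 genes, against 41.6% of all genes. The largest difference was that of Hsph1 (log2 fold change 1.47), and the median over the 9 genes was 1.02, beside -0.12 over all tested genes. Hspa8 and Dnajb1 overlapped between the groups. The plot of intensities by array shows these values.

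**Figure D1:**
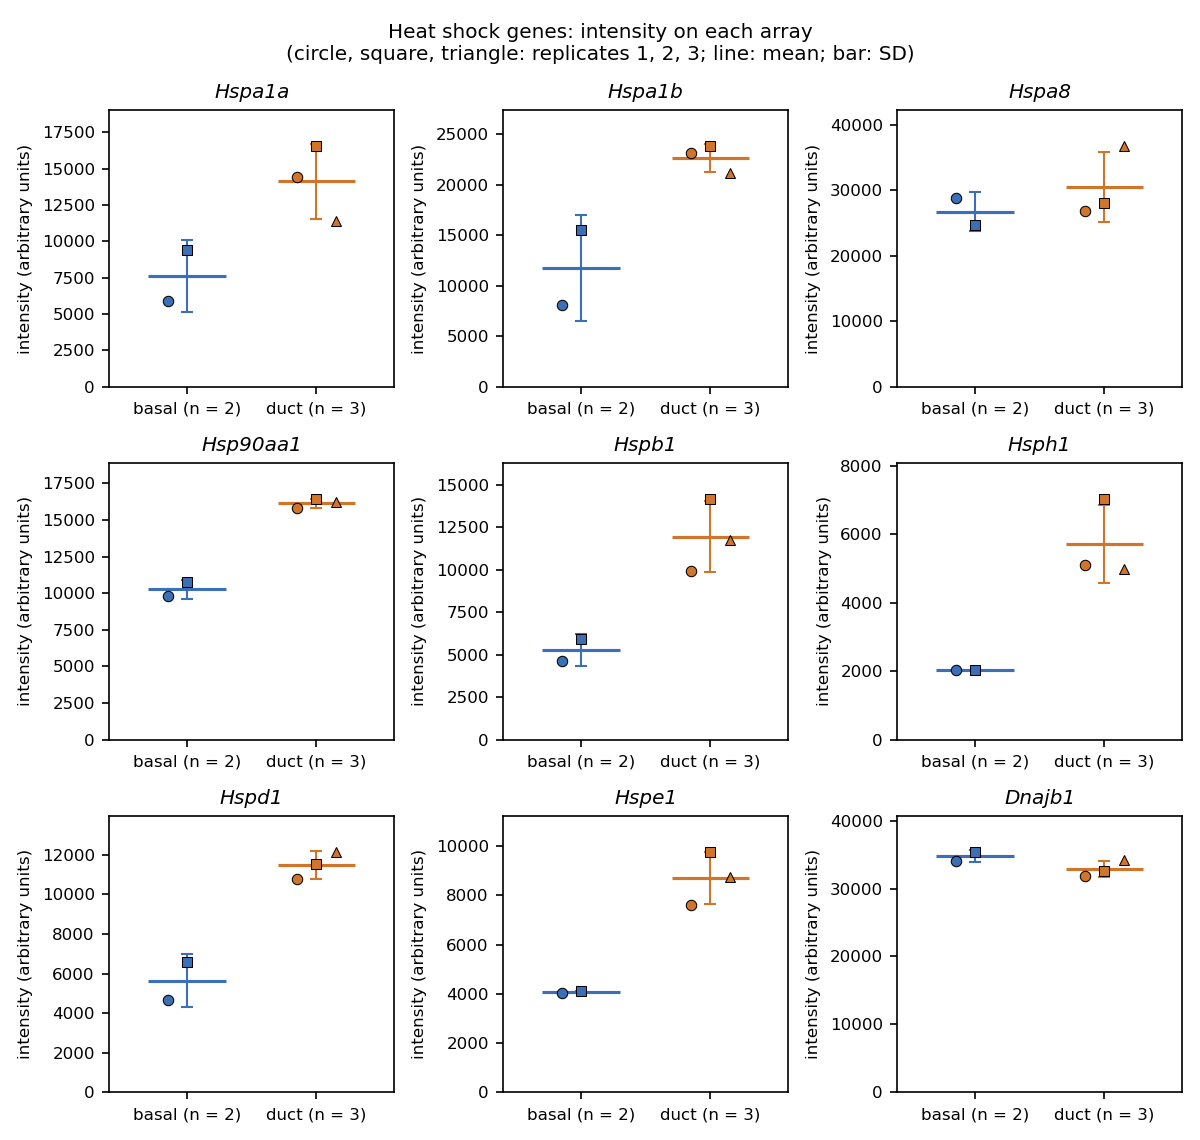
Intensity (arbitrary units, linear axis from 0) of the probe set that stands for each heat shock gene, by group: basal (blue, n = 2) and duct (orange, n = 3), with symbols for replicates, a line for the mean and a bar for the SD. In 7 panels each duct point lies above both basal points, whereas the points overlap for Hspa8 and Dnajb1.

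Among the HSP70 genes, Hspa1a (probe set 1452388_at) measured 5869 and 9379 on basal replicates 1 and 2 and 14428, 16538 and 11402 on duct replicates 1, 2 and 3. Its means were 7624 ± 2482 (SD, n = 2) in basal and 14122 ± 2582 (SD, n = 3) in duct cells. The duct arrays lay above both basal arrays, yet the lowest duct array was only 0.28 above the higher basal array on the log2 scale. Duct exceeded basal cells by a log2 fold change of 0.91 (SE 0.32, 95% interval 0.12 to 1.70, adjusted p = 0.221).

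Hspa1b, the paralogue of Hspa1a, measured on probe set 1452318_a_at 8053 and 15490 on the basal and 23119, 23801 and 21118 on the duct arrays. Here too the basal arrays were far apart, with basal replicate 2 at 1.92 times basal replicate 1, while the duct arrays spanned only 0.17 on the log2 scale. For Hspa1b the log2 fold change was 1.02 (SE 0.34, 95% interval 0.18 to 1.86, adjusted p = 0.206). The other Hspa1b probe sets, 1427126_at and 1427127_x_at, had basal values of 955 and 3017 and of 1091 and 3661, so that basal replicate 2 was 3.16 and 3.36 times basal replicate 1. On the duct arrays they measured 6135, 6959 and 3947, and 7421, 8069 and 5256, all above both basal arrays. Their log2 fold changes, 1.69 and 1.76, were the largest of the 22 probe sets and also had wide intervals (0.37 to 3.01 and 0.44 to 3.08). Since the genes are near copies, signal may be shared between their probe sets, and the values of Hspa1a and Hspa1b are best read together.

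Basal replicate 1 set much of the size of these differences. Without it the log2 fold change was 0.57 for Hspa1a and 0.55 for Hspa1b, and without basal replicate 2 it was 1.25 and 1.49. Each duct array lay above both basal arrays, so the duct mean had to stay above whichever basal array was left.

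Hspa8, the constitutive HSP70, overlapped between the groups on its most intense probe set and not on others. The most intense, 1455789_x_at, measured 28851 and 24667 on the basal and 26924, 28087 and 36748 on the duct arrays, with duct replicate 1 under basal replicate 1. The log2 fold change was 0.18 (SE 0.26, adjusted p = 0.749), and the 95% interval, -0.47 to 0.83, includes differences as large as those of Hsp90aa1. Its probe sets 1420622_a_at and 1420623_x_at, of which the latter measured 15797 and 19430 on the basal and 22580, 25111 and 27223 on the duct arrays, did separate the groups, at log2 fold changes of 0.44 and 0.51 (adjusted p = 0.433 and 0.383 in the fit by probe set). The fourth, 1431182_at, ran from 446 to 2064 in basal and from 1247 to 5856 in duct cells, and its groups overlapped.

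Of the co-factors of the HSP70 cycle, Hsph1 did not overlap between the groups and Dnajb1 did, and the difference between these genes was not tested. Hsph1, on probe set 1425993_a_at, measured 2023 and 2018 on the basal and 5107, 7018 and 4982 on the duct arrays. The basal arrays were nearly equal, and the lowest duct array stood 1.29 above them on the log2 scale, the widest gap of the 22 probe sets. Its log2 fold change was 1.47 (SE 0.27, 95% interval 0.82 to 2.13, adjusted p = 0.0742), the smallest adjusted p of the 9 genes. The other Hsph1 probe set, 1423566_a_at, measured 2597 and 1782 on the basal and 4278, 5581 and 3439 on the duct arrays, at a log2 fold change of 1.01.

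Dnajb1, the J-domain partner, measured on probe set 1416755_at 34124 and 35354 on the basal and 31900, 32645 and 34172 on the duct arrays. These 5 values lie close together, and the groups overlap. Duct minus basal came to -0.08 on the log2 scale (SE 0.22, adjusted p = 0.878), with a 95% interval from -0.63 to 0.47, and its sign turned to 0.13 when each array was centred on its median. The second Dnajb1 probe set, 1416756_at, was less intense, at 5231 and 4376 in basal and 4331, 5639 and 3293 in duct cells, and its log2 fold change was -0.15. So both Dnajb1 probe sets gave small differences, and neither separated the groups.

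Hsp90aa1, the inducible cytosolic HSP90, measured on probe set 1426645_at 9822 and 10743 on the basal and 15800, 16421 and 16219 on the duct arrays. Replicates were tight, and the gap between the groups was 0.56 on the log2 scale. The log2 fold change was 0.65 (SE 0.22, 95% interval 0.10 to 1.20, adjusted p = 0.214). The intense probe sets 1438902_a_at and 1437497_a_at gave 0.57 and 0.99, again with every duct array above both basal arrays. On the remaining pair, 1441827_x_at and 1433251_at, no array was above 213, and the groups overlapped (log2 fold changes of -0.03 and 0.52).

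Hspb1, the small heat shock protein, measured on probe set 1422943_a_at 4605 and 5951 on the basal and 9945, 14160 and 11777 on the duct arrays. The lowest duct array stood 0.74 above the higher basal array on the log2 scale. The log2 fold change was 1.17 (SE 0.28, 95% interval 0.49 to 1.86, adjusted p = 0.116). Its other probe set, 1425964_x_at, measured 3323 and 3202 on the basal and 8014, 9814 and 9654 on the duct arrays. There the log2 fold change was 1.48 (SE 0.25), with the smallest adjusted p of the 22 probe sets in the fit by probe set (0.0822).

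The mitochondrial chaperonin subunits Hspd1 and Hspe1, which share the region between their starts shown above, had non-overlapping groups, with neither past the test. On probe set 1426351_at Hspd1 measured 4688 and 6573 on the basal and 10754, 11550 and 12128 on the duct arrays, at a log2 fold change of 1.04 (SE 0.26, 95% interval 0.40 to 1.69, adjusted p = 0.127). On 1450668_s_at Hspe1 measured 4052 and 4118 on the basal and 7627, 9754 and 8764 on the duct arrays, at 1.08 (SE 0.24, 95% interval 0.49 to 1.68, adjusted p = 0.104). Without basal replicate 1 the values were 0.80 and 1.07, and without basal replicate 2 they were 1.29 and 1.09. The other Hspe1 probe set, 1422579_at, ran from 1672 to 1872 in basal and from 2717 to 3949 in duct cells, at 0.91. RefSeq lists 23 pseudogenes named for Hspd1 and 7 named for Hspe1, so signal shared with such copies is possible, and the probe set that stands for Hspe1, 1450668_s_at, is of the kind that may match several transcripts.

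**Figure D2:**
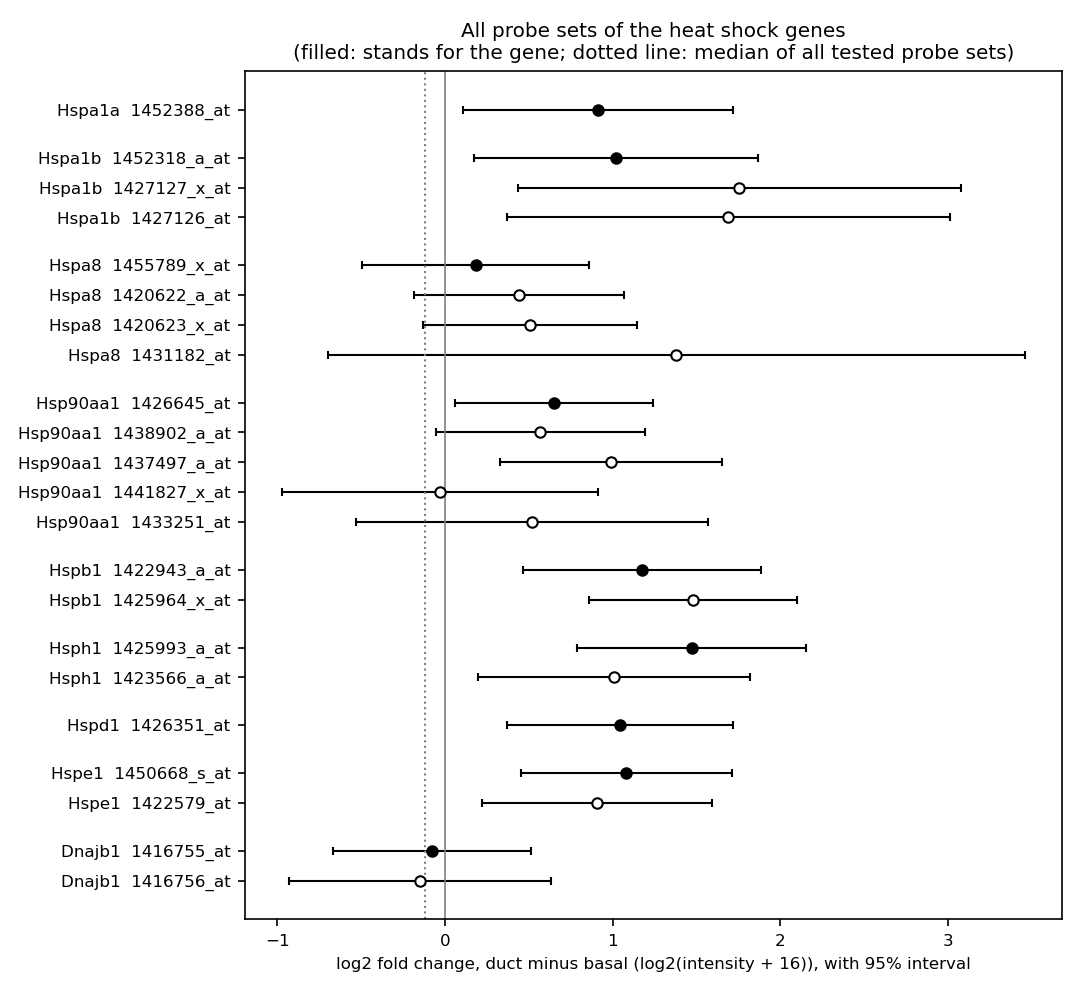
Log2 fold change (duct minus basal, log2(intensity + 16) scale) of all 22 probe sets of the heat shock genes, with 95% intervals from limma. Filled points stand for the gene, and the dotted line marks the median of all tested probe sets, -0.12. The probe sets of Hspa1a, Hspa1b, Hspb1, Hsph1, Hspd1 and Hspe1 lie to the right of 0 with their intervals, and those of Hspa8 and Dnajb1 have intervals that include 0.

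With each probe set as its own feature, 0 of 22 passed the threshold with limma, against 0.484% of all 22527 tested probe sets (0.426% higher and 0.0577% lower). Of the 22, 13 had an unadjusted p under 0.05, all higher in duct cells, against 7.24% of all tested probe sets higher and 9.82% lower. The fold change was above 0 on 19 of the 22, against 42.1%. Each duct array exceeded both basal arrays on 16 of the 22 probe sets, against 15.9% of all tested ones, and on none was the reverse seen, against 21.7%. Of the 7 genes whose groups did not overlap, Hsp90aa1 alone had probe sets that did overlap, the pair of dim ones. Probe sets of a gene share its transcripts and are not replicates.

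The count of called members depended on how variances were modelled. When limma's prior variance followed the mean intensity with a robust fit, the 7 genes passed, with adjusted p-values from 0.000810 (Hsph1) to 0.0429 (Hspa1b), and 4.51% of all genes were called higher in duct cells. In that fit 14 of the 22 probe sets passed, and 3.79% of all probe sets were called higher in duct cells. With a pseudocount of 64, Hsph1 alone passed (adjusted p = 0.0430, 1.66% of all genes higher), and 1 of the 22 probe sets (1.14% of all higher). With the filter raised to 60%, Hsph1 again passed alone (adjusted p = 0.0327, 2.69% of all genes higher). That filter kept 20 of the 22 probe sets, of which 2 passed (2.03% of all probe sets higher). Without basal replicate 1 the median over the 9 genes was 0.59, against 1.02 with all arrays, and 0 of 9 passed. In the plot of alternatives the basal arrays moved Hspa1a, Hspa1b and Hspd1 most.

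**Figure D3:**
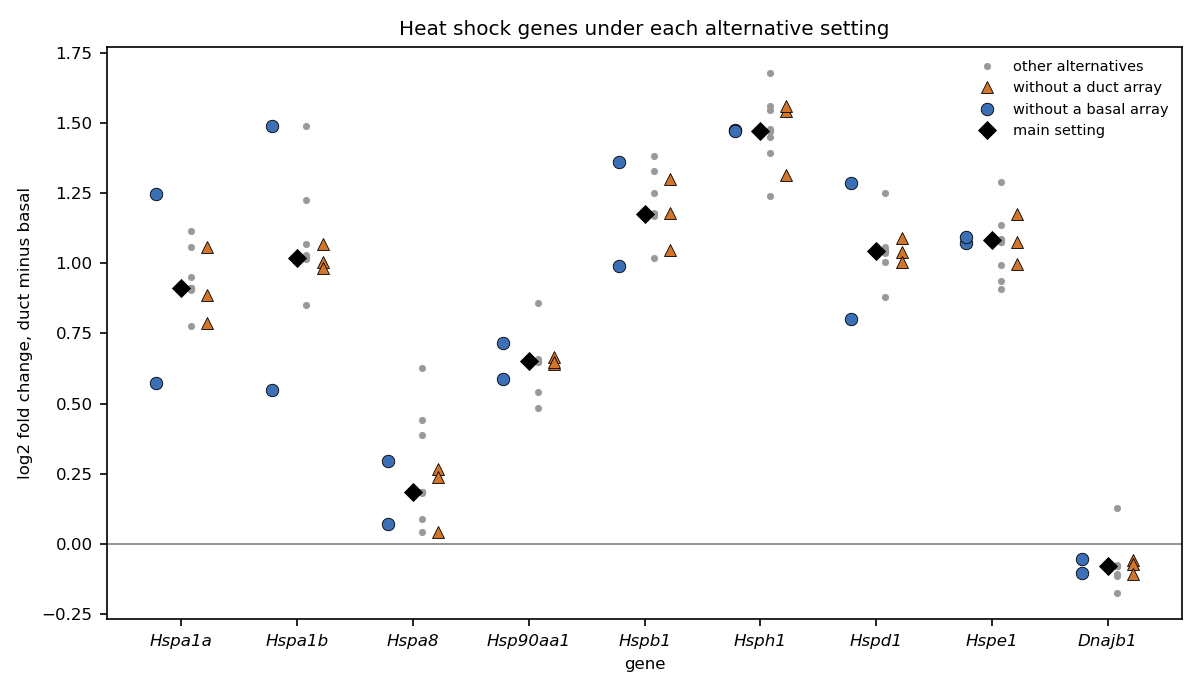
Log2 fold change (duct minus basal) of each heat shock gene in the main setting (diamond), without each basal array (circles), without each duct array (triangles) and under the other alternatives (small dots). Hspa1a and Hspa1b range most widely with the basal array left out, and the values stay above 0 for every gene other than Dnajb1.

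Among the arrays, duct replicate 2 was the highest of the 5 in 6 of the 9 genes and basal replicate 1 the lowest in 6. Duct replicate 3 was highest for Hspa8 and Hspd1, and basal replicate 2 for Dnajb1. Genes outside the members were ranked by the Pearson correlation of their log2 profile with the mean standardised profile of the 9 genes over the 5 arrays. The most alike were Ndufb10 (a subunit of mitochondrial complex I), Rab9, Rpl19 (a ribosomal protein), C4bp-ps1 and Homer1, with r from 0.9975 to 0.9996. With so few arrays many genes reach such values. Of these, Ndufb10, Rab9 and Rpl19 differed between groups by 0.33, 0.31 and 0.37 only, while Homer1 measured 139 and 219 on the basal and 498, 625 and 689 on the duct arrays (1.69, adjusted p = 0.0727). With the mean of its probe sets Homer1 came to 0.52.

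Other chaperone genes were read from lists chosen, like the members, with earlier results of these data known. Counting each gene once, 77 of them were tested, with a median log2 fold change of 0.17. Of these 1 passed higher and 0 lower, against 0.838% and 0.136% of all genes. In 25 of the 77 each duct array lay above both basal arrays, and in 6 below, against 16.5% and 22.6% of all genes. The called gene was Cryab, the small heat shock protein alpha B-crystallin, which measured 19.7 and 122 on the basal and 1285, 1360 and 1280 on the duct arrays (log2 fold change 4.24, SE 0.57, adjusted p = 0.0427). On basal replicate 1 Cryab lay under the brightest Bacillus control probe set (59.7), a measure of background, and on basal replicate 2 above it (86.5), so the size of the difference is uncertain. It was 2.36 with the mean of its probe sets, 3.46 with a pseudocount of 64, 3.27 without basal replicate 1 and 5.21 without basal replicate 2. Leaving out whichever of the 5 arrays ended the call (adjusted p from 0.0535 to 0.174), as did analysis with no filter (0.0893) and with a pseudocount of 1 (0.0763), and it was 0.277 with the replicate number as a block. Of the other tested small heat shock genes none passed, with Hspb6 at 0.60, Hspb8 at 0.49 and Hspb3 at 0.00. With Cryab, the 4 tested genes of this list had a median of 0.54. In 2 of the 4 each duct array lay above both basal arrays and in 0 below, against 16.5% and 22.6% of all genes.

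Of 9 other HSP70 and HSP110 genes 0 passed with limma (1 at an unadjusted p under 0.05, higher, against 7.91% of all genes). The median was -0.14. In 3 of the 9 each duct array lay above both basal arrays and in 0 below, against 16.5% and 22.6% of all genes. Hspa9, the HSP70 of mitochondria, measured 4428 and 3772 on the basal and 8034, 7410 and 7779 on the duct arrays (0.92, adjusted p = 0.129), without overlap. With the mean of its probe sets Hspa9 came to 0.51. Hspa5, the HSP70 of the endoplasmic reticulum, was at 0.47 (adjusted p = 0.330) and Hspa4, an HSP110 relative, at -0.22 (adjusted p = 0.696), which became 0.18 when its probe sets were averaged. The HSP90 genes Hsp90b1, of the endoplasmic reticulum, and Trap1, of mitochondria, were at 0.25 and -0.30, neither past the test. Trap1 came to 0.11 with probe sets averaged and to 0.53 without probe sets that may cross-hybridise.

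In the list of 19 tested J-domain genes 0 passed with limma and the median was 0.09. At an unadjusted p under 0.05 there were 2 higher and 1 lower, against 7.91% and 10.6% of all genes. In 3 of the 19 each duct array lay above both basal arrays and in 2 below, against 16.5% and 22.6% of all genes. The most intense genes of the list, Dnaja1 and Dnajb4, were among those above. Dnaja1, a cytosolic HSP40, measured 5313 and 8836 on the basal and 12260, 13043 and 13280 on the duct arrays (0.91, adjusted p = 0.201). Dnajb4, a relative of Dnajb1, measured 7075 and 8538 on the basal and 12112, 13328 and 11969 on the duct arrays (0.68, adjusted p = 0.218).

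The cytosolic chaperonin, a ring of Cct subunits that folds actin and tubulin, was tested with its helper prefoldin in 14 genes. None passed with limma (1 at an unadjusted p under 0.05, higher, against 7.91% of all genes). In 9 of the 14 each duct array exceeded both basal arrays (16.5% of all genes), in 1 the reverse held (22.6%), and the median was 0.49. Tcp1 measured 8528 and 8900 on the basal and 13446, 11691 and 13639 on the duct arrays (0.56, adjusted p = 0.273), and Cct6a was at 0.55 (adjusted p = 0.281).

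Among 12 genes of mitochondrial protein quality 0 passed with limma, with a median of 0.07. At an unadjusted p under 0.05 there were 2, both higher, against 7.91% of all genes. Grpel2, a nucleotide exchange factor for Hspa9, measured 1197 and 1467 on the basal and 3047, 2762 and 2534 on the duct arrays (1.06, adjusted p = 0.113). The proteases Lonp1, Clpp and Htra2, chosen after their values were seen, were at 0.23, 0.06 and -0.63. Of 16 co-chaperones and exchange factors 0 passed with limma (0 at an unadjusted p under 0.05), with a median of 0.34. Bag1 was at -0.02 and Hsbp1, a heat shock factor binding protein, at -0.20, and both signs turned with centring on array medians (0.18 and 0.0040).

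Of 4 listed heat shock factors, the transcription factors that bind the elements, 3 had a probe set given to them alone, and 2 were tested. Heat shock factor 1 had no such probe set, so its transcript was not followed here. Hsf2 measured 83.5 and 227 on the basal and 85.5, 113 and 161 on the duct arrays, and Hsf4 measured 232 and 103 on the basal and 59.4, 159 and 120 on the duct arrays. Both were dim, and their groups overlapped (log2 fold changes of -0.23 and -0.50, adjusted p = 0.821 and 0.631). Of 11 other textbook targets of these factors 1 passed, the Cryab described above, against 0.838% of all genes called higher. The median was 0.48. At an unadjusted p under 0.05 with limma, 3 were higher, against 7.91% of all genes. In 5 each duct array lay above both basal arrays and in 1 below, against 16.5% and 22.6% of all genes. Ier5, an HSF1 target chosen after its value was seen, measured 4749 and 5427 on the basal and 13057, 11423 and 10699 on the duct arrays (1.20, adjusted p = 0.0876).

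**Figure D4:**
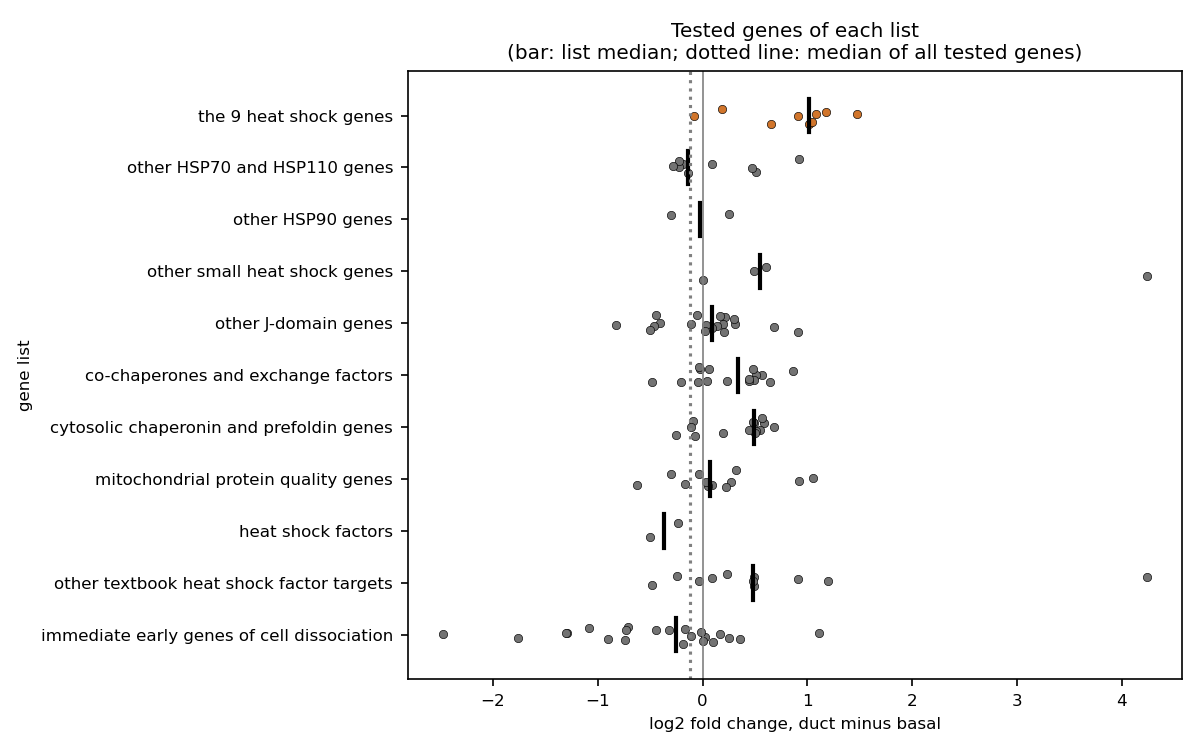
Log2 fold change (duct minus basal) of each tested gene in the 9 heat shock genes (orange) and in each chaperone, heat shock factor and immediate early list (grey), with a bar at the list median and a dotted line at the median of all tested genes, -0.12. The 9 genes have a median of 1.02, the chaperonin list one of 0.49 and the immediate early list one of -0.26, and Cryab is the isolated point at 4.24 in both lists that hold it.

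Immediate early genes, transcription factors and regulators that cells also induce on dissociation, were read from a further list. Of 22 tested 0 passed with limma, and without adjustment 1 lay under 0.05 on the higher and 6 on the lower side (7.91% and 10.6% of all genes), with a median of -0.26 beside -0.12 over all genes. In 10 of them each duct array lay below both basal arrays (22.6% of all genes), and in 2 above (16.5%). The most intense, Jun and Zfp36, were at -0.11 and -0.19 (adjusted p = 0.834 and 0.716), and both signs turned with median centring (0.10 and 0.016). Egr1 and Fos, picked once their values were known, measured 23563 and 23339 and then 23541 and 22613 on the basal arrays. On the duct arrays Egr1 measured 8609, 11430 and 8915 (-1.29, adjusted p = 0.0844) and Fos 11162, 13845 and 12183 (-0.90, adjusted p = 0.138). Myc, picked likewise, was higher in duct cells on every array, at 2355 and 2056 on the basal and 4709, 4389 and 5251 on the duct arrays (1.11, adjusted p = 0.0983).

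Markers of other epithelia moved with the groups too. Of 12 genes of stratified squamous epithelium 11 passed higher in duct cells, against 0.838% of all genes. Their summed intensities were 9337 and 11664 on the basal and 93996 to 128570 on the duct arrays. Of 4 tested thyroid genes 1 passed higher, against the same share. The summed intensity of the 6 thyroid genes on the array was 387 to 438 in basal and 9465 to 21777 in duct cells. Club cell markers (0 of 6 called) summed to 133665 and 189494 on the basal and 121335 to 148728 on the duct arrays. Leukocyte markers (0 of 4 tested called) summed to 495 and 1567 on the basal and 1054 to 2142 on the duct arrays. Ciliated, fibroblast, and muscle and myoepithelial markers (0 of 4, 0 of 3 and 0 of 2 tested called) summed to at most 1789, 4714 and 894 on any array. Endothelial markers, none of which passed the filter, summed to 103 to 344. Of the leukocyte, endothelial and muscle markers 1, 2 and 2 were at or below the brightest Bacillus control on every array. The part of these cells in the heat shock values was not tested.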

How the data were processed

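The authors deposited 1 linear intensity per probe set and array. Per the values, each array was scaled to a mean of 500.0 after trimming the lowest and highest 2% of probe sets, without quantile normalization. Probe set summary, background correction and software are, for these arrays, not given in the sources used here. Other columns numbered 0. Of 45101 probe sets, 64 controls were left out, and 34945 had 1 gene symbol in the platform annotation, 932 several and 9160 none. Values became log2(intensity + 16). The probe set with the highest mean stood for each gene, and the lowest 40% were left out (12536 genes, 22527 probe sets). limma 3.58.1 (R 4.3.3) fitted all 5 arrays without covariates (lmFit, eBayes, 2-sided, 3 residual and 2.79 prior degrees of freedom). The fit was checked on simulated data for bias, interval coverage and false calls. A target first set for the share of changed genes called was not met and was dropped, since few of the smaller changes were called with so few arrays. Alternatives were quantile normalization, median centring, pseudocounts of 1 and 64, no filter or a 60% filter, the mean of probe sets, no _s_at or _x_at probe sets, a trend with a robust fit, array weights, the replicate block and each array left out. The number of arrays limits precision. Replicate numbers name biological replicates, and the labels pair none of them between the groups. Genes named by rule were the 9 members, all tested heat shock factors and the 5 most alike profiles. The rule also took up to 4 called genes of a list or, where none was called, its 2 most intense. Outside this rule, Lonp1, Clpp, Htra2, Ier5, Egr1, Fos and Myc were picked after their values were seen. The other tested small heat shock genes and the basal markers were named as well. Members and lists were chosen with earlier results of these data known.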

Additional observations from a re-analysis of the deposited data

How the results depend on the processing

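Across 16 alternatives the 9 heat shock genes kept their direction, other than Dnajb1, which was at 0.13 with each array centred on its median. The number of these genes called (0) was 1 with a pseudocount of 64 (Hsph1), 1 with the lowest 60% left out (Hsph1) and 7 with an intensity trend and robust fit. Of the 22 probe sets (20 with the lowest 60% left out) 1, 2 and 14 were then called. Leaving out 1 array at a time gave 0 called genes and 0 called probe sets of the members and a median over the 9 genes from 0.59 to 1.25. Over all genes 122 were called. Other counts were 338 with median centring, 303 with a pseudocount of 64, 36 with no filter, 408 with the 60% filter, 191 with the mean of probe sets, 942 with trend and robust fit, and 0 to 48 without 1 array. For probe sets the count was 109, and 168 with quantile normalization, 445 with centring, 67 with a pseudocount of 1, 362 with one of 64, 38 with no filter, 477 with the 60% filter, 1357 with trend and robust fit and 0 to 44 without 1 array. The share of calls that were higher was 86.1%, and 68.6% with a pseudocount of 64, 61.3% with the 60% filter, 59.98% with trend and robust fit, 74.3% with the mean of probe sets and 97.2% with no filter. Median centring moved the median of all genes from -0.12 to 0.08. The cause of these changes was not tested.

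With the replicate number as a block 0 genes, 0 probe sets and 0 members were called, and the median of the 9 genes was 1.06. Duct replicate 3 shares its number with no basal array and then carries no weight. Same-numbered arrays did not deviate together (correlations over genes of -0.08 and -0.04). Values that changed sign were Bag1 0.18, Hsbp1 0.0040, Jun 0.10 and Zfp36 0.016 with centring, Hspa4 0.18 and Trap1 0.11 with the mean of probe sets, Trap1 0.53 without cross-hybridising probe sets. With 1 array left out, Hsf4 ranged from -1.03 to 0.029 and Jun from -0.25 to 0.025, each above 0 without basal replicate 1, and Bag1 from -0.16 to 0.11 and Hsf2 from -0.88 to 0.41, each above 0 without basal replicate 2. Leaving out an array kept the probe sets and genes chosen on all 5, and a lone basal array was assumed to vary like the duct arrays.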
